A study of Mus musculus with 9 samples.

Results

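The genes described here encode the enzymes that add methyl groups to histone lysines and those that take them off, with relatives that share their names. They were chosen by name: every gene of the count table whose NCBI identifier maps to a mouse symbol beginning with Kdm, Kmt2, Kmt5, Setd, Ezh, Ehmt, Suv39h, Nsd or Smyd, together with Dot1l and Ash1l, and with a count above 0 in some library. Of 55 symbols with those letters, Kdm8 and the pseudogene Kdm4dl were listed at 0 in all 9 libraries and Kdm5d was left out by name, which left 52 members of 36172 genes in the table, or of 19250 genes above 0. Nsdhl, an enzyme of sterol synthesis, and Ezhip, an inhibitor of Polycomb repressive complex PRC2, matched by their letters only. The other 50, called enzymes below, are 16 histone demethylases, 26 histone methyltransferases or close relatives, and 8 SET and SMYD proteins whose substrates are other than histones or unsettled, and all 50 passed the filter on low counts.

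A methyl group on a histone lysine does not change its charge but is read by proteins that open or close chromatin. Methylation of H3K4 marks promoters and enhancers in use, methylation of H3K36 and H3K79 marks transcribed gene bodies, and methylation of H3K9, H3K27 and H4K20 marks silenced chromatin. SET domain enzymes and Dot1l write these marks, whereas JmjC domain enzymes and the flavin-dependent pair Kdm1a and Kdm1b erase them. Mutations in many of these genes, Kdm5c and Ehmt1 among them, cause intellectual disability in people.

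RNA was sequenced from the medial prefrontal cortex of DBA2/J mice in 3 groups of 3 libraries. The SA:ANH-KDM5Ci group was exposed to 5 days of social defeat and given an inhibitor of the H3K4 demethylase KDM5C, the SA:ANH-vehicle group was exposed to the same stress and given vehicle, and the NS group was not stressed. The NS mice carry a saline label, and the treatment labels of the vehicle mice also say saline where their titles say vehicle. The stressed mice of both groups belong to a subtype called SA:ANH, whose meaning, like the compound's name and dose, is not given in the sources used. The labels do not state that each library is a different mouse, and p-values here therefore reflect the spread between libraries, which may be technical. The groups are called KDM5Ci, vehicle and NS below.

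Libraries held from 30525714 to 40700115 expected counts in the KDM5Ci group, from 33733470 to 42196472 in the vehicle group and from 29845097 to 36033714 in the NS group. The first principal component of all genes tested held 29.4% of the variance, with the KDM5Ci libraries between 12.5 and 22.2 and the other libraries below 0. The 6 markers of excitatory neurons, the main neurons of cortex, summed to between 7062 and 7200.1 CPM in KDM5Ci libraries, between 6943 and 7297 CPM in vehicle libraries and between 7288 and 7580 CPM in NS libraries, where CPM are counts scaled to a common library total. The inhibitor acts on the protein, so the RNA of Kdm5c is no check of the treatment.

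Between KDM5Ci and vehicle libraries, 2 of the 50 enzymes changed, and both fell: Kdm1b, an H3K4 demethylase, and Suv39h2, an H3K9 methyltransferase. Of all 15144 genes tested, 2.51% passed in this comparison and 1.62% passed with a lower level, in edgeR's quasi-likelihood test (Benjamini-Hochberg adjustment, threshold 0.05). Between KDM5Ci and NS libraries 1 enzyme fell, Kdm1b again, where 3.97% of all genes passed and 2.11% passed with a lower level. Between vehicle and NS libraries 0 of 50 enzymes passed, also under DESeq2 and limma-voom, where 0.0132% of all genes passed in edgeR's test. An unadjusted p under 0.05 was held by 11 enzymes between KDM5Ci and vehicle (22% against 14.2% of all genes), by 7 between KDM5Ci and NS (14% against 18.5%) and by 4 between vehicle and NS (8% against 8.21%). No enzyme rose in any comparison, where 0.891% of all genes rose between KDM5Ci and vehicle and 1.86% between KDM5Ci and NS.

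Most enzymes differed little between groups. The median log2 fold change of the 50 was -0.04 between KDM5Ci and vehicle, -0.05 between KDM5Ci and NS, and -0.01 between vehicle and NS, against 0.00 for all genes in each comparison. Of the 50, 43 lay within 0.2 of no change between KDM5Ci and vehicle, or 86% against 79% of all genes. The comparisons share libraries, so their values are not independent of each other. With each library left out in turn, the median ran from -0.07 to 0.00 between KDM5Ci and vehicle (0.00 without vehicle replicate 1), from -0.07 to -0.02 between KDM5Ci and NS, and from -0.03 to 0.01 between vehicle and NS. Negative fold changes were held by 31 of 50 enzymes between KDM5Ci and vehicle, 62% against 48.9% of all genes, by 35 of 50 between KDM5Ci and NS, 70% against 50.1%, and by 29 of 50 between vehicle and NS, 58% against 48.4% (38, 39 and 26 of 50 without TMM scaling). With each library left out, 24 to 36 enzymes had negative fold changes between KDM5Ci and vehicle (24 without vehicle replicate 1), 31 to 41 between KDM5Ci and NS, and 22 to 32 between vehicle and NS. The typical standard error of an enzyme's log2 fold change was 0.07, with Smyd1, the least abundant, at up to 0.38.

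**Figure D1:**
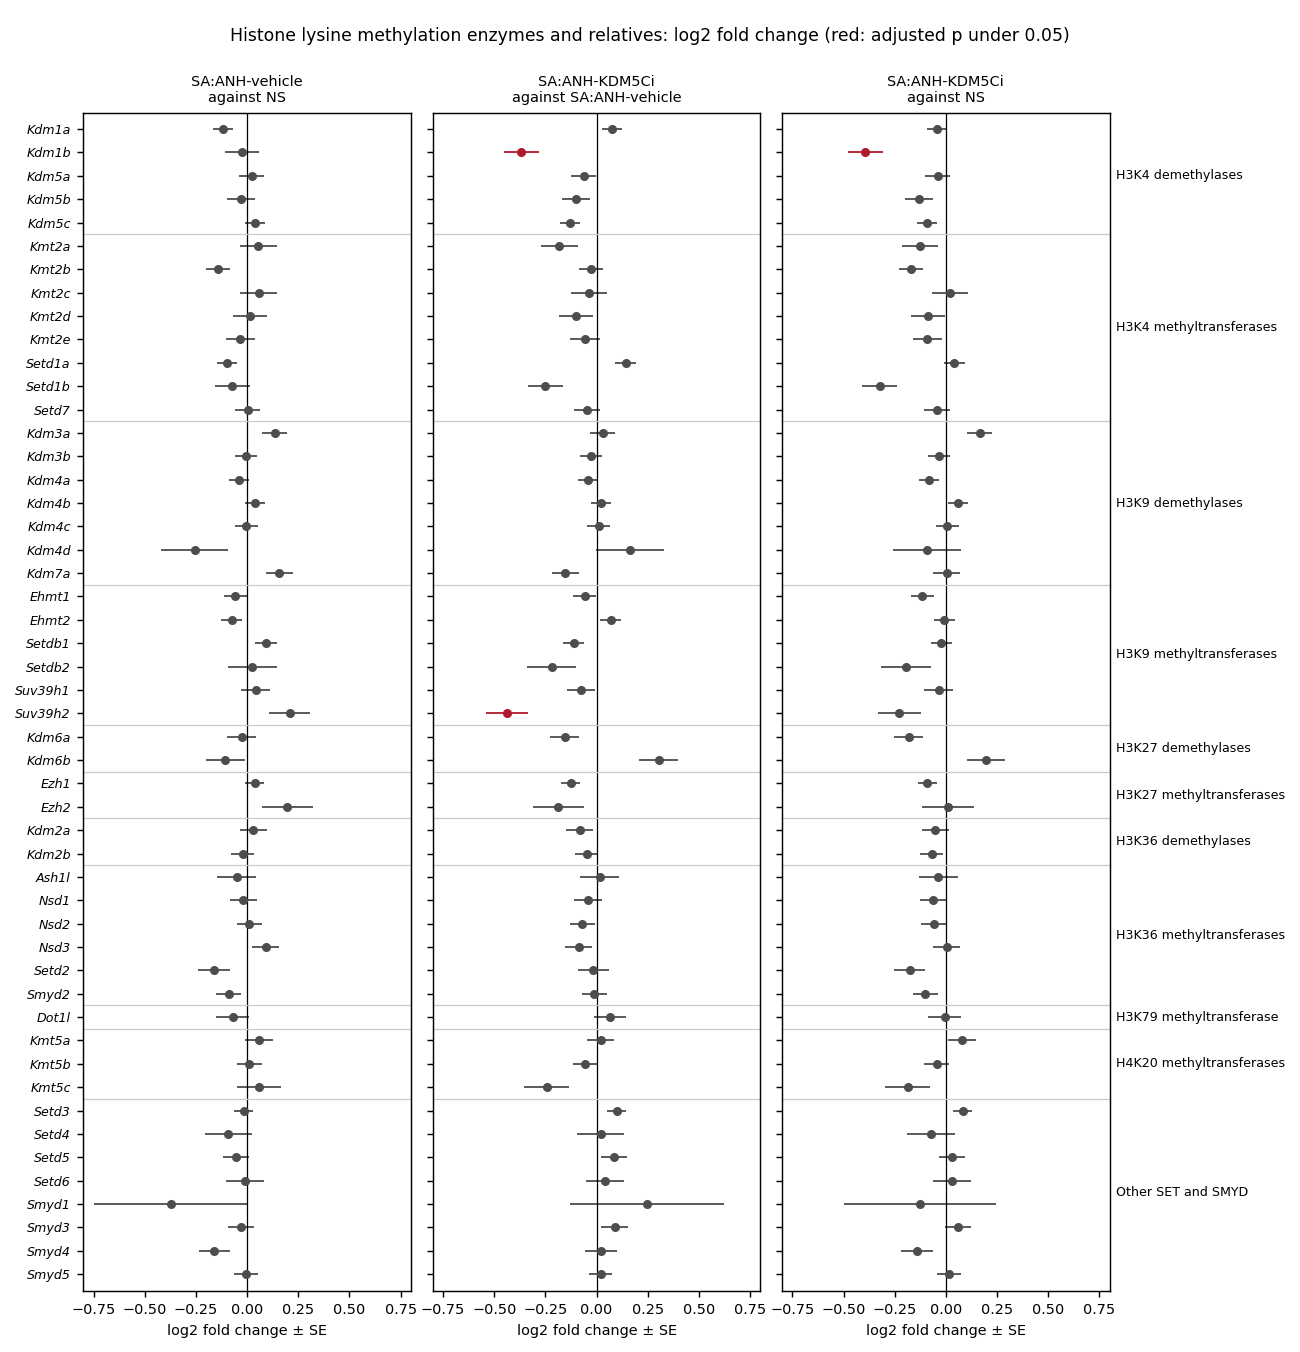
Log2 fold change with its standard error for the 50 enzymes (down the page, grouped by histone mark) in each of the 3 comparisons, from 1 fit of all 9 libraries. Points whose adjusted p was under 0.05 are red: Kdm1b and Suv39h2 between KDM5Ci and vehicle, and Kdm1b between KDM5Ci and NS.

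Kdm1b, also called LSD2, removes methyl groups from mono- and dimethylated H3K4 and in mouse oocytes is needed to set up maternal imprints. It was measured at 7.68, 8.05 and 7.12 CPM in KDM5Ci libraries, at 10.5, 9.60 and 9.33 CPM in vehicle libraries and at 10.005, 10.006 and 9.94 CPM in NS libraries. Every KDM5Ci library lay below all 6 others, while vehicle and NS libraries overlapped. Kdm1b averaged 7.61 ± 0.467 CPM in KDM5Ci libraries, 9.79 ± 0.587 CPM in vehicle libraries and 9.98 ± 0.0403 CPM in NS libraries (SD, n = 3 each). It fell by 0.37 on the log2 scale between KDM5Ci and vehicle (SE 0.08, edgeR's adjusted p = 0.0365) and by 0.39 between KDM5Ci and NS (SE 0.08, edgeR's adjusted p = 0.0196). Between vehicle and NS its log2 fold change was -0.03 (edgeR's adjusted p = 0.974). The call between KDM5Ci and vehicle was lost when any library but NS replicate 1 was left out, with an adjusted p of up to 0.154 and a log2 fold change between -0.41 and -0.31, and also with only the KDM5Ci and vehicle libraries in the fit (adjusted p = 0.0825). The call between KDM5Ci and NS was lost without NS replicate 2, NS replicate 3, KDM5Ci replicate 1 or KDM5Ci replicate 3, with an adjusted p of up to 0.0809.

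Suv39h2 trimethylates H3K9 in pericentric heterochromatin, where it shares that work with Suv39h1. Its level was 4.50, 4.33 and 4.38 CPM in KDM5Ci libraries, 5.91, 5.96 and 6.001 CPM in vehicle libraries and 5.68, 4.77 and 5.02 CPM in NS libraries. The KDM5Ci libraries were the lowest of the 9, the vehicle libraries the highest, and no pair of groups overlapped. Suv39h2 fell by 0.44 on the log2 scale between KDM5Ci and vehicle (SE 0.10, edgeR's adjusted p = 0.0416). Its log2 fold change was -0.23 between KDM5Ci and NS (SE 0.10, edgeR's adjusted p = 0.265) and 0.21 between vehicle and NS (SE 0.10, edgeR's adjusted p = 0.627), and neither passed. The call between KDM5Ci and vehicle was lost when any library but NS replicate 1 was left out, with an adjusted p of up to 0.137 and a log2 fold change between -0.45 and -0.42. It was also lost under DESeq2, without the filter on low counts, with only the KDM5Ci and vehicle libraries in the fit, and with a replicate block, with an adjusted p of up to 0.0624.

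The promoters of the enzymes that fell are shown beside that of Kdm5c, whose protein the inhibitor targets. They run from 250 bases before to 50 bases after the transcription start, from RefSeq on GRCm38.p6, with motif matches in capitals (GGGCGG of a GC box, CCAAT, the cAMP response element TGACGTCA and the YY1 core AAGATGGCG, on either strand).
Kdm1b (chr13:47043249-47043548, plus strand): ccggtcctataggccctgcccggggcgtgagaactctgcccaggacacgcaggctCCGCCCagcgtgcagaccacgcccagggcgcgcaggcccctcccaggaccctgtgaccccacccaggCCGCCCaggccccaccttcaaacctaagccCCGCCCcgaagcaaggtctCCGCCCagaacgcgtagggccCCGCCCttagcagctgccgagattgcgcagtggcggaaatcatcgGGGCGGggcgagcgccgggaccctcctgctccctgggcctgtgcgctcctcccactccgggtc
Suv39h2 (chr2:3474937-3475236, minus strand): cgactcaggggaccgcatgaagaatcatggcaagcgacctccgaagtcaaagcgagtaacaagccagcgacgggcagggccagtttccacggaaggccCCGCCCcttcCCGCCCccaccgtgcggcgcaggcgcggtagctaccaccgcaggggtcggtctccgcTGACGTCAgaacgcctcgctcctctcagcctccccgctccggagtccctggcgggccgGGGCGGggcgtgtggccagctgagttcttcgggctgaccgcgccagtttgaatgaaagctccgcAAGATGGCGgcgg
Kdm5c (chrX:152232977-152233276, plus strand): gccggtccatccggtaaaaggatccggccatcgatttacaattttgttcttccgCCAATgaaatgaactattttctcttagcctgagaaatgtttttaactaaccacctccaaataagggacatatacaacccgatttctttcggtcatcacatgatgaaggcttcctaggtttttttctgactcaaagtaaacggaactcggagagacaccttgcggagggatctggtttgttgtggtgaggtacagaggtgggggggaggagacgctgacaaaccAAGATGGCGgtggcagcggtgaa
The Kdm1b window was 72.3% G and C and held 6 GC boxes, and the Suv39h2 window was 68.3% G and C and held 3 GC boxes, 1 cAMP response element and 1 YY1 core. The Kdm5c window was 47.0% G and C and held 0 GC boxes, 1 CCAAT and 1 YY1 core. A promoter was found for 37 of the 50 enzymes, with a median of 62.7% G and C against 52.7% in all 32851 windows. GC boxes were found in 35.7% of all windows, CCAAT in 37.4%, the cAMP response element in 1.79% and the YY1 core, searched for after the sequences had been seen, in 1.40%. Counted by gene, a GC box stood in 25 of 37 enzyme promoters, or 67.6% against 38.2% of 27025 genes. CCAAT stood in 17 of 37, or 45.9% against 41.1%, and the cAMP response element in 1 of 37, or 2.7% against 2.03%. The YY1 core stood in 5 of 37, or 13.5% against 1.64%, with Suv39h2 and Kdm5c, whose sequences had been seen first, among the 5. An E-box (CACGTG) stood in 4 of 37, or 10.8% against 8.09% of genes, TATAAA in 1 of 37, or 2.7% against 15.7%, and the glucocorticoid response element (AGAACA and TGTTCT, 3 bases apart) in 0 of 37 against 0.0111%. The enzymes all passed the filter on low counts, whereas the windows and genes set against them include genes that were not tested. Shares among tested genes alone were not computed, so whether these differences are particular to the enzymes was not tested.

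Kdm1b shares 505 exonic bases with Dek, and Suv39h2 shares 357 with Dclre1c, on the opposite strand in each case. The sources used do not give whether reads were counted by strand, and reads from these overlaps cannot be told apart. Dek averaged 62.6 ± 0.542 CPM in KDM5Ci libraries and 63.1 ± 1.29 CPM in vehicle libraries (log2 fold change -0.01, edgeR's adjusted p = 0.953). Dclre1c averaged 16.3 ± 1.96 CPM in KDM5Ci libraries and 17.3 ± 0.714 CPM in vehicle libraries (log2 fold change -0.08, edgeR's adjusted p = 0.728). Exons of 20 of the 50 enzymes overlap a gene on the opposite strand.

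Markers of other cell types moved in the same comparison. Endothelial markers summed to between 144 and 182 CPM in KDM5Ci libraries and to between 194 and 211 CPM in vehicle libraries, and 3 of 6 fell. Markers of meninges and fibroblasts summed to between 77.3 and 84.3 CPM in KDM5Ci libraries and to between 110.2 and 174 CPM in vehicle libraries, and 3 of 8 fell. Of 5 markers of oligodendrocyte precursors, 2 rose, with sums between 246 and 266.0 CPM in KDM5Ci libraries and between 203 and 219 CPM in vehicle libraries. All 8 markers of striatal neurons had positive fold changes and 0 passed, with sums between 225 and 550.01 CPM in KDM5Ci libraries and between 196 and 259.8 CPM in vehicle libraries. The 6 oligodendrocyte markers and the 6 interneuron markers all had positive fold changes too (median log2 fold change 0.45 and 0.13). Of these 0 passed, and their sums overlapped those of vehicle libraries. Against NS, all 4 blood cell markers tested rose in KDM5Ci libraries (median log2 fold change 0.69). They summed to between 372 and 495 CPM in KDM5Ci libraries and to between 235 and 272 CPM in NS libraries. In vehicle libraries these markers summed to between 406 and 466 CPM. All 4 had positive fold changes between vehicle and NS (median log2 fold change 0.76), and 1 passed. Between KDM5Ci and vehicle 0 blood cell markers passed (median log2 fold change -0.05). Of the 6 endothelial markers, 3 fell between KDM5Ci and NS. Their sums were between 144 and 182 CPM in KDM5Ci libraries and between 198 and 213 CPM in NS libraries. Also against NS, 1 marker of meninges and fibroblasts fell, with sums between 77.3 and 84.3 CPM in KDM5Ci libraries and between 95.8 and 151 CPM in NS libraries, and 1 marker of oligodendrocyte precursors rose, with sums between 246 and 266.0 CPM in KDM5Ci libraries and between 207 and 238 CPM in NS libraries. No gene of these lists was listed at 0 in all libraries. Their part in the changes of Kdm1b and Suv39h2 was not tested, and in bulk tissue fewer cells of a type and less RNA per cell cannot be told apart.

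Among the 5 H3K4 demethylases 1 fell between KDM5Ci and vehicle, and the group's median log2 fold change was -0.10. Kdm5c, the X-linked demethylase of di- and trimethylated H3K4, was measured at 59.4, 57.9 and 57.5 CPM in KDM5Ci libraries, at 64.0, 66.6 and 60.7 CPM in vehicle libraries and at 61.6, 61.7 and 63.0 CPM in NS libraries. The KDM5Ci libraries were the lowest of the 9 and overlapped neither of the other groups. Kdm5c did not pass the test, with a log2 fold change of -0.13 between KDM5Ci and vehicle (SE 0.05, edgeR's adjusted p = 0.222) and of -0.09 between KDM5Ci and NS (SE 0.05, edgeR's adjusted p = 0.341). The paralog Kdm5b was at 69.7, 73.8 and 60.6 CPM in KDM5Ci libraries, 75.0, 75.2 and 68.5 CPM in vehicle libraries and 71.5, 74.9 and 77.1 CPM in NS libraries. Kdm5a, the other autosomal member, was at 65.0, 65.0 and 63.2 CPM in KDM5Ci libraries, 72.2, 65.3 and 64.0 CPM in vehicle libraries and 61.2, 67.9 and 69.5 CPM in NS libraries. All groups overlapped for Kdm5b, and for Kdm5a the KDM5Ci libraries lay below the vehicle mean but within the NS range. Between KDM5Ci and vehicle the log2 fold change was -0.10 for Kdm5b (SE 0.07) and -0.06 for Kdm5a (SE 0.06), and neither passed (edgeR's adjusted p = 0.582 and 0.716).

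Kdm1a, the paralog of Kdm1b and the catalytic subunit of the CoREST complex, was at 75.2, 79.8 and 82.6 CPM in KDM5Ci libraries, 74.7, 76.1 and 74.8 CPM in vehicle libraries and 80.7, 83.1 and 81.2 CPM in NS libraries. Vehicle libraries lay below all NS libraries, whereas KDM5Ci libraries overlapped both groups. None of its comparisons passed: the log2 fold change was -0.12 between vehicle and NS (SE 0.05, edgeR's adjusted p = 0.535) and 0.08 between KDM5Ci and vehicle (SE 0.05, edgeR's adjusted p = 0.542). Per kilobase of exon, Kdm1a held 91.2%, 91.3% and 92.5% of the summed level of the pair in KDM5Ci libraries, 88.4%, 89.4% and 89.5% in vehicle libraries and 89.5%, 89.8% and 89.7% in NS libraries.

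**Figure D2:**
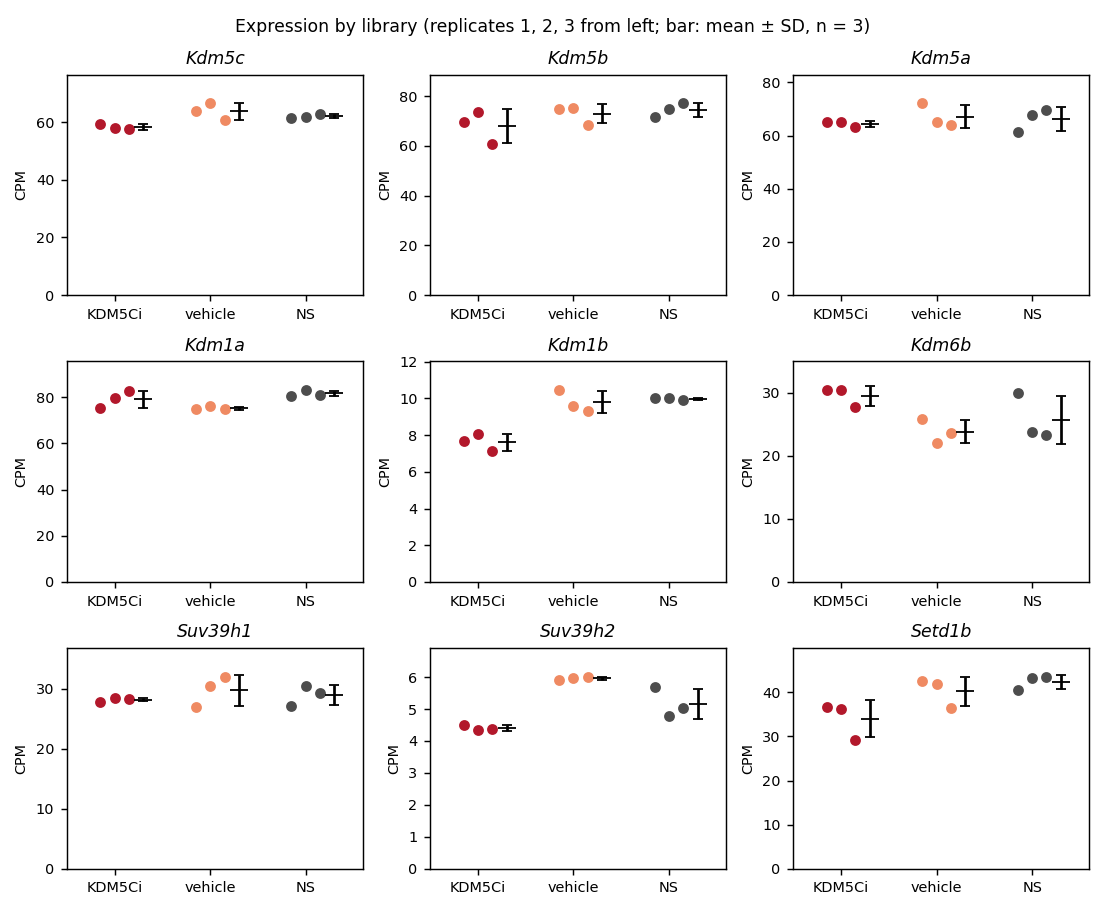
CPM in each library (y axis, from 0) for 9 enzymes, with KDM5Ci, vehicle and NS from left to right, points for replicates 1 to 3 and a bar for the mean ± SD (n = 3). Kdm1b and Suv39h2 are lower in every KDM5Ci library than in any vehicle library, and Kdm5c shows the same order at a smaller distance, 58.3 ± 1.01 CPM in KDM5Ci libraries against 63.8 ± 2.94 CPM in vehicle libraries.

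None of the 8 genes grouped as H3K4 methyltransferases or close relatives passed in any comparison. Setd1b, a catalytic subunit of a COMPASS complex that trimethylates H3K4 at promoters, came closest. It was measured at 36.7, 36.1 and 29.1 CPM in KDM5Ci libraries, 42.5, 41.8 and 36.5 CPM in vehicle libraries and 40.6, 43.2 and 43.5 CPM in NS libraries. The KDM5Ci libraries lay below all NS libraries and overlapped the vehicle libraries at 1 of them. The log2 fold change of Setd1b was -0.32 between KDM5Ci and NS (SE 0.09, edgeR's adjusted p = 0.0559) and -0.25 between KDM5Ci and vehicle (SE 0.09, edgeR's adjusted p = 0.182). Between KDM5Ci and NS, Setd1b passed under 4 of 18 alternatives, DESeq2 among them (adjusted p = 0.0169). Of these 4, 1 was a fit with a library left out, vehicle replicate 3 (edgeR's adjusted p = 0.0462). The other 8 fits with a library left out gave an adjusted p of up to 0.193 in edgeR's test. Without KDM5Ci replicate 3 the log2 fold change of Setd1b was -0.22 between KDM5Ci and NS and -0.15 between KDM5Ci and vehicle.

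Its paralog Setd1a was at 61.2, 63.5 and 62.0 CPM in KDM5Ci libraries, 57.0, 58.3 and 53.8 CPM in vehicle libraries and 60.1, 62.3 and 58.8 CPM in NS libraries. Vehicle libraries were the lowest and overlapped neither other group, with a log2 fold change of 0.14 between KDM5Ci and vehicle that did not pass (SE 0.05, edgeR's adjusted p = 0.184). Of the 6795 exonic bases of Setd1a, 3523 are shared with Gm49388 on the same strand, and reads from them cannot be told apart. Kmt2b, an MLL family enzyme, was at 48.0, 54.5 and 50.2 CPM in KDM5Ci libraries, 53.5, 52.5 and 49.2 CPM in vehicle libraries and 59.7, 56.7 and 55.2 CPM in NS libraries. NS libraries were the highest for Kmt2b, with log2 fold changes of -0.17 between KDM5Ci and NS and -0.14 between vehicle and NS (SE 0.06 each, edgeR's adjusted p = 0.138 and 0.541). Setd7, the most abundant of the group per kilobase, was at 254, 249 and 230 CPM in KDM5Ci libraries, 277, 244 and 236 CPM in vehicle libraries and 257, 256 and 242 CPM in NS libraries, and all groups overlapped. Among Kmt2a, Kmt2c, Kmt2d and Kmt2e, the largest log2 fold change was the -0.18 of Kmt2a between KDM5Ci and vehicle (SE 0.09, edgeR's adjusted p = 0.402). Kmt2a was at 174, 171 and 135 CPM in KDM5Ci libraries and at 192, 181 and 170 CPM in vehicle libraries, so that replicate 3 of the KDM5Ci group stood lowest.

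Of the 7 H3K9 demethylases 0 passed in any comparison. Kdm7a, which acts on dimethylated H3K9 and H3K27, was at 89.6, 88.0 and 81.8 CPM in KDM5Ci libraries, 106, 94.1 and 88.1 CPM in vehicle libraries and 82.6, 89.6 and 86.1 CPM in NS libraries. Its vehicle libraries reached highest but overlapped both other groups, with a log2 fold change of -0.15 between KDM5Ci and vehicle and of 0.16 between vehicle and NS (SE 0.07 each, edgeR's adjusted p = 0.313 and 0.561). Kdm3a, a demethylase of mono- and dimethylated H3K9, was at 50.4, 47.3 and 42.6 CPM in KDM5Ci libraries, 45.7, 44.9 and 46.6 CPM in vehicle libraries and 40.5, 41.4 and 43.1 CPM in NS libraries. Vehicle libraries lay above NS libraries, while the lowest KDM5Ci library lay within the NS range. The log2 fold change of Kdm3a was 0.17 between KDM5Ci and NS and 0.13 between vehicle and NS (SE 0.06 each, edgeR's adjusted p = 0.167 and 0.598). Without KDM5Ci replicate 3, Kdm3a passed against NS (log2 fold change 0.23, edgeR's adjusted p = 0.0485).

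The 4 Kdm4 enzymes, which act on trimethylated H3K9 and in part H3K36, spanned a wide range of levels. Kdm4b was at 65.4, 65.1 and 66.3 CPM in KDM5Ci libraries, 64.2, 67.4 and 62.3 CPM in vehicle libraries and 65.1, 59.8 and 63.9 CPM in NS libraries. Kdm4d was at 1.48, 1.65 and 1.87 CPM in KDM5Ci libraries, 1.57, 1.57 and 1.32 CPM in vehicle libraries and 1.67, 1.78 and 1.91 CPM in NS libraries. Vehicle libraries lay below NS libraries for Kdm4d, with a log2 fold change of -0.26 that did not pass (SE 0.17, edgeR's adjusted p = 0.754).

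Among the 6 H3K9 methyltransferases 1 fell between KDM5Ci and vehicle, and 5 of 6 had negative fold changes. Suv39h1 was at 27.9, 28.5 and 28.3 CPM in KDM5Ci libraries, 26.9, 30.5 and 31.9 CPM in vehicle libraries and 27.1, 30.4 and 29.2 CPM in NS libraries, and all groups overlapped. Its log2 fold change between KDM5Ci and vehicle was -0.08 (SE 0.07, edgeR's adjusted p = 0.697). Per kilobase of exon, Suv39h1 held from 79.2% to 84.6% of the summed level of Suv39h1 and Suv39h2. Setdb1, which silences retroelements through H3K9 trimethylation, was at 42.8, 44.1 and 41.9 CPM in KDM5Ci libraries and at 46.4, 48.6 and 44.3 CPM in vehicle libraries, with 43.3, 45.0 and 42.5 CPM in NS libraries. Setdb2, the least abundant of the group per kilobase, was at 3.64, 3.62 and 3.93 CPM in KDM5Ci libraries, 4.62, 4.48 and 3.94 CPM in vehicle libraries and 3.84, 4.68 and 4.32 CPM in NS libraries. For both Setdb genes every KDM5Ci library lay below the vehicle libraries, with log2 fold changes of -0.11 for Setdb1 and -0.22 for Setdb2 that did not pass (SE 0.05 and 0.12, edgeR's adjusted p = 0.361 and 0.467).

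Ehmt2, known as G9a and a writer of dimethylated H3K9, was at 195, 200 and 203 CPM in KDM5Ci libraries, 178, 199 and 194 CPM in vehicle libraries and 204, 203 and 194 CPM in NS libraries. The groups overlapped, and the log2 fold change between KDM5Ci and vehicle was 0.07 (SE 0.05, edgeR's adjusted p = 0.607). Ehmt2 held from 87.2% to 89.9% of the summed level per kilobase of Ehmt2 and its partner Ehmt1.

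The H3K27 demethylases had fold changes of opposite sign. Kdm6b, a demethylase of trimethylated H3K27 also known as JMJD3, was at 30.4, 30.4 and 27.7 CPM in KDM5Ci libraries, 25.8, 22.1 and 23.7 CPM in vehicle libraries and 30.1, 23.8 and 23.3 CPM in NS libraries. Every KDM5Ci library lay above the vehicle libraries, whereas NS replicate 1 reached the KDM5Ci range. The log2 fold change of Kdm6b was 0.30 between KDM5Ci and vehicle and did not pass (SE 0.09, edgeR's adjusted p = 0.131). Without NS replicate 1 Kdm6b passed in that comparison (log2 fold change 0.31, edgeR's adjusted p = 0.0336) and against NS (log2 fold change 0.33, edgeR's adjusted p = 0.0354). Kdm6a, the X-linked demethylase of the same mark, was at 34.3, 35.0 and 36.2 CPM in KDM5Ci libraries, 42.1, 39.1 and 36.2 CPM in vehicle libraries and 36.1, 42.1 and 41.6 CPM in NS libraries. KDM5Ci libraries were at the low end of both other groups, with a log2 fold change of -0.15 between KDM5Ci and vehicle (SE 0.07, edgeR's adjusted p = 0.348). The exons of Kdm6b share 286 bases with the opposite-strand gene Kdm6bos.

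Ezh1 and Ezh2 are alternative catalytic subunits of PRC2, which writes H3K27 methylation, with Ezh2 the form of dividing cells. Ezh1 was at 55.8, 56.3 and 53.8 CPM in KDM5Ci libraries, 59.9, 62.5 and 58.6 CPM in vehicle libraries and 58.5, 59.5 and 58.5 CPM in NS libraries. Ezh2 was at 4.53, 4.01 and 3.63 CPM in KDM5Ci libraries, 4.83, 4.37 and 4.59 CPM in vehicle libraries and 4.10, 4.38 and 3.55 CPM in NS libraries. The KDM5Ci libraries were the lowest of the 9 for Ezh1, while all groups overlapped for Ezh2. Neither passed between KDM5Ci and vehicle, at a log2 fold change of -0.13 for Ezh1 (SE 0.05) and -0.19 for Ezh2 (SE 0.12) (edgeR's adjusted p = 0.219 and 0.575). Ezh1 held from 91.7% to 93.7% of their summed level per kilobase.

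Of the 2 H3K36 demethylases and 6 H3K36 methyltransferases 0 passed in any comparison. Kdm2a was at 102, 102 and 86.7 CPM in KDM5Ci libraries, 101, 107 and 98.8 CPM in vehicle libraries and 103, 102 and 95.2 CPM in NS libraries. Kdm2b, also a subunit of a variant Polycomb complex, was at 26.2, 25.3 and 25.4 CPM in KDM5Ci libraries, 25.4, 26.5 and 27.6 CPM in vehicle libraries and 26.5, 27.6 and 26.7 CPM in NS libraries. The groups overlapped for Kdm2a, and KDM5Ci libraries lay just below NS libraries for Kdm2b. Setd2, the enzyme that trimethylates H3K36 behind RNA polymerase, was at 87.7, 98.9 and 84.7 CPM in KDM5Ci libraries, 97.2, 95.3 and 81.5 CPM in vehicle libraries and 95.6, 108 and 103 CPM in NS libraries. NS libraries reached highest but overlapped both stressed groups, with a log2 fold change of -0.18 between KDM5Ci and NS and of -0.16 between vehicle and NS (SE 0.08 each, edgeR's adjusted p = 0.239 and 0.612). Nsd3, a writer of dimethylated H3K36, was at 105, 102 and 92.7 CPM in KDM5Ci libraries, 106, 109 and 104 CPM in vehicle libraries and 90.2, 107 and 102 CPM in NS libraries. Smyd2, the most abundant of the group per kilobase, was at 45.1, 49.9 and 52.5 CPM in KDM5Ci libraries, 47.8, 49.0 and 52.0 CPM in vehicle libraries and 54.5, 51.0 and 52.8 CPM in NS libraries. All groups overlapped for both, and the log2 fold changes of the H3K36 methyltransferases between KDM5Ci and vehicle ran from -0.09 to 0.02.

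Dot1l, the only known H3K79 methyltransferase of mammals, was at 40.0, 45.1 and 39.9 CPM in KDM5Ci libraries, 44.5, 39.4 and 35.2 CPM in vehicle libraries and 43.8, 40.7 and 40.7 CPM in NS libraries. All groups overlapped, with a log2 fold change of 0.07 between KDM5Ci and vehicle (SE 0.08, edgeR's adjusted p = 0.778). Of the H4K20 methyltransferases, Kmt5c, which writes the trimethyl mark, was at 8.40, 6.69 and 8.02 CPM in KDM5Ci libraries, 9.49, 8.23 and 9.65 CPM in vehicle libraries and 9.69, 8.39 and 8.20 CPM in NS libraries. Kmt5a, which writes the monomethyl mark, was at 47.3, 41.3 and 44.4 CPM in KDM5Ci libraries, 44.9, 43.1 and 43.1 CPM in vehicle libraries and 45.6, 41.4 and 38.9 CPM in NS libraries. Groups overlapped for both, and the log2 fold change of Kmt5c between KDM5Ci and vehicle, -0.24, did not pass (SE 0.11, edgeR's adjusted p = 0.331).

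The 8 SET and SMYD proteins with other or unsettled substrates had positive fold changes between KDM5Ci and vehicle in 8 of 8 and negative ones between vehicle and NS in 8 of 8 (5 of 8 and 7 of 8 without TMM scaling), and 0 passed in either. Both comparisons use the vehicle libraries, so these counts are not independent. Setd3, which methylates a histidine of actin, was at 174, 173 and 188 CPM in KDM5Ci libraries, 166, 166 and 167 CPM in vehicle libraries and 169, 166 and 170 CPM in NS libraries. KDM5Ci libraries were the highest of the 9 for Setd3, with a log2 fold change of 0.10 between KDM5Ci and vehicle (SE 0.05, edgeR's adjusted p = 0.346). Smyd4 was at 14.9, 16.4 and 14.5 CPM in KDM5Ci libraries, 16.4, 14.1 and 14.5 CPM in vehicle libraries and 17.3, 16.7 and 16.5 CPM in NS libraries. NS libraries were the highest for Smyd4, with a log2 fold change of -0.16 between vehicle and NS (SE 0.08, edgeR's adjusted p = 0.621). Smyd1, a factor of heart and skeletal muscle, was at 0.262, 0.614 and 0.996 CPM in KDM5Ci libraries, 0.492, 0.616 and 0.530 CPM in vehicle libraries and 0.735, 0.530 and 0.870 CPM in NS libraries, with wide overlap.

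Groups that did not overlap were counted over the 50 enzymes. Between KDM5Ci and vehicle there were 9 such enzymes, 6 lower (Ezh1, Kdm1b, Kdm5c, Setdb1, Setdb2 and Suv39h2) and 3 higher (Kdm6b, Setd1a and Setd3), or 18% against 18.9% of all genes (10.9% lower, 7.92% higher). Between KDM5Ci and NS there were 10, 9 lower and 1 higher (Setd3), or 20% against 23.5% of all genes (12% lower, 11.5% higher). Between vehicle and NS there were 7, or 14% against 15.1% of all genes (6.81% lower, 8.29% higher), with Kdm3a and Suv39h2 higher and Kdm1a, Kdm4d, Kmt2b, Setd1a and Smyd4 lower. Each total share was below that of all genes. By direction, 12%, 18% and 10% of the enzymes were lower in these 3 comparisons in turn, each above the share of all genes. Higher levels were held by 6%, 2% and 4%, each below it.

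Levels of different enzymes were compared as CPM per kilobase of exon, averaged over all 9 libraries. Ehmt2 stood highest at 35.8 CPM per kb, followed by Setd3 at 28.3, Setd7 at 23.1, Smyd2 at 18.6 and Ash1l at 17.2. At the low end were Smyd1 at 0.138 CPM per kb, Kdm4d at 0.575, Ezh2 at 0.632, Setd4 at 0.951, Setdb2 at 1.02 and Suv39h2 at 1.17. Among H3K4 demethylases the order was Kdm1a at 15.2 CPM per kb, Kdm5c at 8.63, Kdm5a at 4.66, Kdm5b at 4.34 and Kdm1b at 1.66. Kdm5c held from 47.4% to 50.6% of the summed level per kilobase of Kdm5a, Kdm5b and Kdm5c. Summed over Ezh1 and Ezh2, of which Ezh1 held most, the level was between 7.77 and 8.18 CPM per kb in KDM5Ci libraries. It was between 8.56 and 9.06 in vehicle libraries and between 8.40 and 8.66 in NS libraries. The SET and SMYD proteins with other or unsettled substrates lay the other way. They summed to between 57.31 and 59.7 CPM per kb in KDM5Ci libraries. Their sums were between 55.4 and 56.1 in vehicle libraries and between 56.5 and 57.26 in NS libraries. Setd3, the largest part of these sums, averaged 29.5 CPM per kb in KDM5Ci libraries, 27.6 in vehicle libraries and 27.9 in NS libraries. H3K4 demethylases summed to 33.1 to 34.1 CPM per kb in KDM5Ci libraries and 34.7 to 35.9 in NS libraries. Their vehicle libraries overlapped both groups. The sum over the 8 genes grouped as H3K4 methyltransferases or close relatives was between 68.5 and 77.8 CPM per kb in KDM5Ci libraries. It was between 71.9 and 82.6 in vehicle libraries and between 75.9 and 80.8 in NS libraries, and the groups overlapped. For H3K9 demethylases, vehicle libraries (48.31 to 50.6 CPM per kb) lay above NS libraries (47.6 to 48.25), and KDM5Ci libraries (46.8 to 49.3) overlapped both. Sums of the remaining mark groups overlapped in all comparisons.

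**Figure D3:**
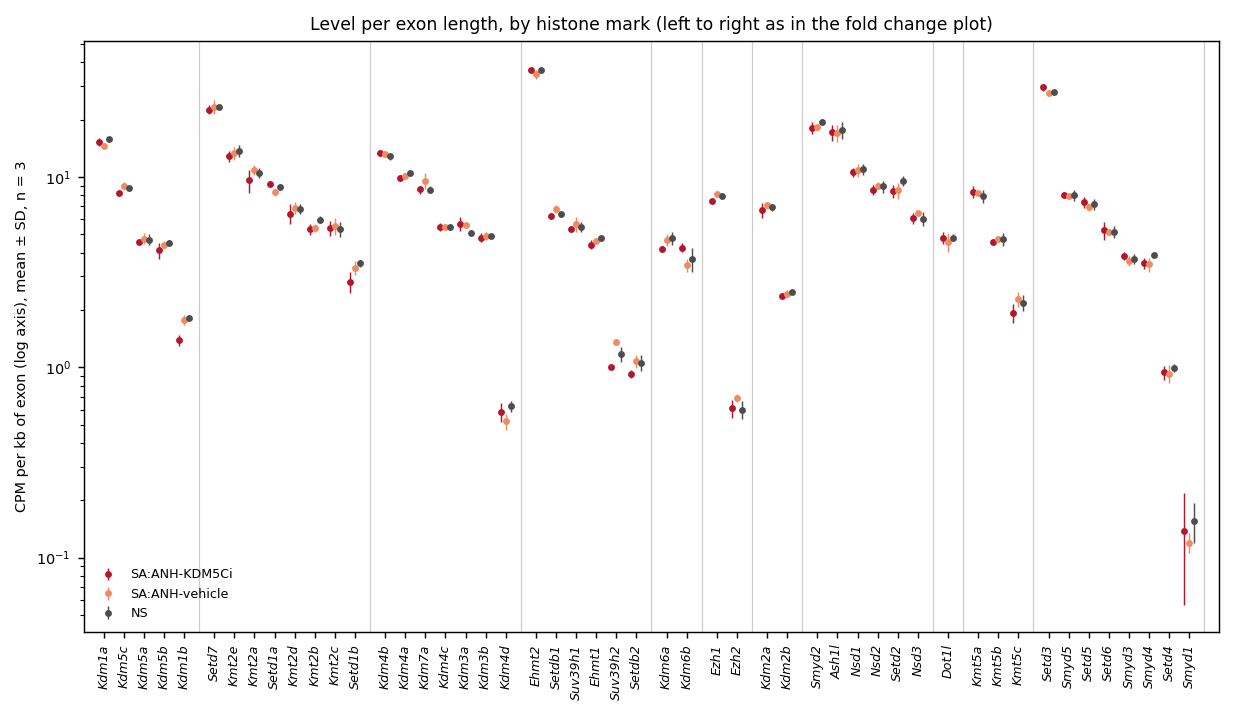
Level of the 50 enzymes in CPM per kilobase of exon on a log axis, by histone mark, as mean ± SD (n = 3) of the KDM5Ci, vehicle and NS libraries from left to right within each gene. Levels run from 0.138 CPM per kb for Smyd1 to 35.8 for Ehmt2, and the 3 groups lie close together for nearly every gene.

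Many of these genes have long transcripts, and their values moved from library to library with length. The median exon length was 7778 bases for the 50 enzymes and 4389 bases for all genes with a length, from 1903 bases for Setd6 to 20291 for Kmt2c. Of the 50, 19 exceeded 10000 bases, against 9.5% of all genes. The median deviation of these 19 from their mean over libraries was 0.00, 0.03 and -0.14 on the log2 scale in KDM5Ci libraries, 0.12, 0.01 and -0.06 in vehicle libraries and -0.08, 0.07 and 0.06 in NS libraries. Replicate 3 of the KDM5Ci group and replicate 1 of the NS group were thus the lowest, and vehicle replicate 1 the highest. All 1407 genes over 10000 bases had deviations of 0.01, 0.05 and -0.09 in KDM5Ci libraries, 0.06, 0.01 and -0.06 in vehicle libraries and -0.07, 0.06 and 0.04 in NS libraries.

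Within a library, Spearman's rho between exon length and deviation over the 50 enzymes was -0.58 in KDM5Ci replicate 3 and -0.54 in NS replicate 1, and ran from -0.25 to 0.40 in the other 7. These genes share a library, and rho is given as a description. Between KDM5Ci and vehicle the median log2 fold change was -0.06 for the 19 long enzymes and 0.02 for the other 31, and between KDM5Ci and NS it was -0.05 and -0.04. For all 1407 tested genes over 10000 bases it was -0.008 between KDM5Ci and vehicle and -0.019 between KDM5Ci and NS. The part of transcript length in the fold changes of single enzymes was not tested.

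**Figure D4:**
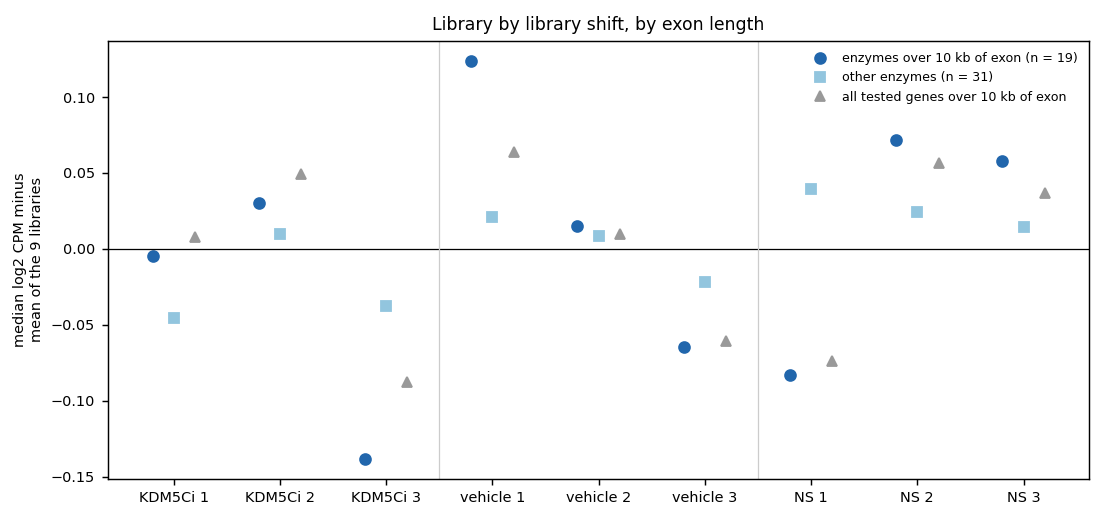
Median deviation of log2 CPM from the mean of the 9 libraries (y axis) in each library (x axis: KDM5Ci, vehicle, NS), for the 19 enzymes over 10000 bases of exon, the other 31 enzymes, and all tested genes over 10000 bases. The long enzymes swing from -0.14 in KDM5Ci replicate 3 to 0.12 in vehicle replicate 1, while the others stay between -0.05 and 0.04.

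Few partners of these enzymes passed the test. Between KDM5Ci and vehicle 0 of 14 partners in H3K4 methyltransferase complexes, 0 of 10 PRC2 partners, 0 of 15 CoREST, HP1 and H3K9 partners and 0 of 18 histone acetyltransferases and deacetylases passed, and the median log2 fold changes of these lists lay between -0.04 and 0.04. The H3K4 partner Pagr1a and the acetyltransferases Kat6a, Kat6b and Kat7 were listed at 0 in all libraries and were not tested. Of 18 JmjC, SET or PR domain enzymes with other symbols 1 fell, Mecom, a PR domain transcription factor of blood stem cells. It was at 1.64, 1.75 and 1.37 CPM in KDM5Ci libraries, 2.98, 2.91 and 2.68 CPM in vehicle libraries and 2.09, 2.29 and 2.58 CPM in NS libraries, and fell by 0.86 on the log2 scale between KDM5Ci and vehicle (SE 0.15, edgeR's adjusted p = 0.00818). KDM5Ci libraries were the lowest of the 9 for Mecom, and the call was lost without KDM5Ci replicate 3 (edgeR's adjusted p = 0.0517). Of 11 DNA methylation enzymes and readers 1 fell, Tet1, which oxidises 5-methylcytosine.

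Tet1 was at 12.6, 13.2 and 10.7 CPM in KDM5Ci libraries, 19.5, 14.6 and 15.8 CPM in vehicle libraries and 16.3, 17.6 and 16.3 CPM in NS libraries. Every KDM5Ci library lay below all 6 others. Tet1 fell by 0.46 on the log2 scale between KDM5Ci and vehicle and by the same amount between KDM5Ci and NS (SE 0.11 each, edgeR's adjusted p = 0.0429 and 0.0317), and was the 1 gene of these lists to pass against NS. The call against vehicle was lost when any library but vehicle replicate 2 was left out (edgeR's adjusted p up to 0.175), and under 3 other alternatives, limma-voom among them, and that against NS without NS replicate 1, 2 or 3 or KDM5Ci replicate 1 or 3 (edgeR's adjusted p up to 0.120). Between vehicle and NS 0 genes of the 6 lists passed. Summed over the PRC2 partners, levels were between 684 and 698 CPM in KDM5Ci libraries, 661 and 685 in vehicle libraries and 647 and 654 in NS libraries. Their median log2 fold change between KDM5Ci and NS was 0.10, with 8 of 10 positive. Histone acetyltransferases and deacetylases summed to 1060 to 1066 CPM in KDM5Ci libraries, 1037 to 1058 in vehicle libraries and 1035 to 1063 in NS libraries.

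Nsdhl, which matched by its letters only, changed between KDM5Ci and NS. It was at 22.7, 26.1 and 24.6 CPM in KDM5Ci libraries, 25.2, 26.5 and 26.9 CPM in vehicle libraries and 31.1, 32.6 and 32.5 CPM in NS libraries. NS libraries lay above all stressed libraries, and the stressed groups overlapped. Nsdhl fell by 0.39 on the log2 scale between KDM5Ci and NS (SE 0.06, edgeR's adjusted p = 0.00338), a call kept with each library left out. Between vehicle and NS its log2 fold change of -0.29 did not pass (SE 0.06, edgeR's adjusted p = 0.158), although DESeq2 gave an adjusted p of 0.0195. Ezhip did not pass the filter, at up to 0.1004 CPM where 3 counts correspond to between 0.0711 and 0.101 CPM.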

How the data were processed

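Total RNA from frozen tissue was made into SureSelect strand-specific libraries, per the labels' protocols. The authors deposited expected counts, 1 value per gene and library, mostly not whole (15.7% of values above 0 were whole within 1e-06). Trimmomatic 0.32, TopHat2 2.0.13 and Bowtie2 2.2.3 with mm10 are named, per the submitters' processing notes. How reads were counted, and whether by strand, is not given in the sources used.

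Identifiers were matched to RefSeq symbols (GRCm38.p6, 32891 matched), and 0.367% of counts had no symbol. Expected counts were rounded, genes were filtered with filterByExpr (15144 left), libraries were scaled by TMM (factors 0.987 to 1.01), and 1 mean per group was fitted over all 9 libraries with edgeR's robust quasi-likelihood test (edgeR 4.0.16, R 4.3.3), with Benjamini-Hochberg adjustment over all 15144 genes at 0.05. The script was tested on simulated data. The standard error is the log2 fold change divided by the square root of F. CPM values use TMM-scaled library sizes, with SD over 3 libraries. A count of 0 allows up to 3 counts, counting error only. Exon lengths are unions of exons in GENCODE M21, matched by symbol, which may differ from the authors' annotation. 0 columns of other samples were present.

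The alternatives tried were limma-voom (limma 3.58.1), DESeq2 1.42.0, DESeq2's size factors alone, no TMM, other filters, fewer groups, no robust moderation, a replicate block and each library left out. Values in every library are given for members that passed, for Kdm5a, Kdm5b and Kdm5c, and for the members of lowest p and of highest and lowest level in each mark group. The members, gene lists and rules were chosen with earlier results of these data known.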

Additional observations from a re-analysis of the deposited data

How the results depend on the processing

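The count of enzymes that passed between KDM5Ci and vehicle was 2, and became 1 under DESeq2, without the filter on low counts and with a replicate block, 0 with only the 2 groups compared in the fit, and between 0 and 3 with each library left out. Between KDM5Ci and NS it was 1, and became 2 under DESeq2, without the filter and with a replicate block, and between 0 and 2 with each library left out. Between vehicle and NS it stayed at 0 in every alternative run. Over all genes, 380 passed between KDM5Ci and vehicle (203 to 429 with each library left out, 363 with the block), 601 between KDM5Ci and NS (269 to 747, 708 with the block), and 2 between vehicle and NS (2 to 17, 81 under DESeq2, 11 without TMM, 11 without the filter, 17 with only the 2 groups). Between KDM5Ci and vehicle it was 203 without vehicle replicate 2, 204 without KDM5Ci replicate 3 and 253 without vehicle replicate 1; between KDM5Ci and NS it was 269 without NS replicate 3, 279 without KDM5Ci replicate 1, 318 without NS replicate 2 and 398 without KDM5Ci replicate 3. Over the 51 tested members, Tet1 and Mecom in all comparisons, 2859 alternative values stayed on the same side of the threshold in 2809. They lost a call in 42 (Kdm1b 13, Suv39h2 12, Tet1 16, Mecom 1), gained one in 8 (Setd1b 4, Kdm6b 2, Kdm3a 1, Nsdhl 1) and reversed a call in 0. Fold changes that did not pass could change sign. Between vehicle and NS, that of Kdm1b was -0.03 in the main fit and 0.008 without vehicle replicate 3 (log2 scale). With the block, Setd1b had an adjusted p of 0.0331 between KDM5Ci and NS in edgeR's test. The labels do not say that replicate numbers pair libraries, so the block was kept as an alternative. Same-numbered KDM5Ci and vehicle libraries correlated at 0.24, 0.08 and 0.18 in their deviations, and differently numbered ones at -0.25 to 0.09. Each vehicle library correlated best with the KDM5Ci library of its number, whereas KDM5Ci replicate 2 correlated at 0.084 with vehicle replicate 2 and at 0.085 with vehicle replicate 3. With NS libraries, same-numbered vehicle libraries correlated at 0.06, 0.03 and -0.03, and same-numbered KDM5Ci libraries at -0.02, 0.10 and -0.14. A pairing of KDM5Ci and vehicle libraries is therefore not excluded. With 3 libraries a group and a median standard error of 0.07, changes of the size most enzymes showed, under 0.2, are hard to call. Smyd1, Kdm4d and Ezhip are limited by depth.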
